A study of Mus musculus with 27 samples.

Results

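Bone marrow cells that had been kept in Flt3 ligand (Flt3-L) for 11 days were set against cells kept in the same ligand for 48 h, across all genes on the array. The arrays were chosen by their sample titles alone: 6 of the 27 arrays of the series, 3 per time, both without cyclosporin A (CsA). The marrow came from femurs and tibiae of C57BL/6 mice aged 8 to 12 weeks, and Flt3-L was supplied at about 200 ng/ml from transfected B16 tumour cells, with no gene altered in the mice. The other groups used below were 11-day and 48-hour cultures with CsA at 2 µg/ml, and cultures with Flt3-L for 12 h and 24 h beside unstimulated marrow, again 3 arrays each. The series describes its replicates as biological but does not say whether each came from its own animal, so p-values measure the spread between these cultures. What else the B16 cells release, and whether unstimulated marrow was taken fresh, are not given in the labels.

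Flt3-L binds the receptor tyrosine kinase Flt3 on progenitors of the marrow and is known for driving them to dendritic cells, which take up antigen and present it to T cells. Conventional dendritic cells of type 1 (cDC1) need Batf3 and Irf8, carry Xcr1 and Clec9a and present antigen from dead cells. Those of type 2 (cDC2) rely on Irf4, and plasmacytoid dendritic cells rely on Tcf4 and are known for making type I interferon. Neutrophils, red cells and megakaryocytes mature mainly under other cytokines.

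The 6 arrays had median signals of 114.2 to 123.2 on the linear intensity scale, and each lay closest to an array of its own group. The correlation across probe sets was at least 0.997 between 11-day arrays and 0.9969 between 48-hour arrays, and 0.9691 to 0.9711 between the times. In a limma model over the 27 arrays, 4821 of 19935 genes were higher at 11 days (24.2%) and 3756 were lower (18.8%) at an adjusted p under 0.05, which is what "called" means below. The arrays of the 2 times did not overlap for 47.3% of genes. Of the called genes, 556 rose at least 2-fold (2.79%) and 709 fell at least 2-fold (3.56%). The median change over all genes was 0.02 on the log2 scale, so a list of genes has to be read against a background in which 43.0% of all genes were called. Changes are given as log2 differences, 11 days minus 48 h, ± SE from that fit, with n = 3 arrays per time. These are bulk cultures, in which fewer cells of a type and less RNA per cell cannot be told apart. The background of the arrays was not measured, so the fold of a gene whose signal is low at one time is limited by it.

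Genes of neutrophils fell furthest. Chil3, a chitinase-like protein of neutrophil precursors and some macrophages, gave signals of 25.4, 29.5 and 47.4 at 11 days, against 3253, 3568 and 3400 at 48 h. Camp, the precursor of the antimicrobial peptide cathelicidin, gave 106, 112 and 113 at 11 days and 5529, 5696 and 5158 at 48 h. Every 11-day array lay far under every 48-hour array for both genes, 104-fold lower for Chil3 (-6.70 ± 0.12) and 49.5-fold lower for Camp (-5.63 ± 0.09), with limma adjusted p of 1.8e-23 and 6.4e-25. Cxcr2, the receptor through which chemokines call neutrophils out of the marrow, fell 47.4-fold, and Ly6g, the surface marker used to sort mouse neutrophils, 45.1-fold. All 21 measured genes of the late neutrophil list were lower and none was higher, with a median of -4.39. The calprotectin subunits S100a8 and S100a9 lay 21.0-fold and 27.1-fold lower. Among Ly6g, Ltf and Ngp, taken as defining markers, the granule protein Ngp changed least, at 686, 660 and 746 on the 11-day arrays against 6342, 7052 and 6526 on the 48-hour arrays.

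The iron-binding granule protein lactoferrin (Ltf) had signals of 194, 188 and 192 at 11 days, against 5690, 6000 and 5884 at 48 h, groups that were tight and far apart (30.6-fold lower, -4.93 ± 0.07, limma adjusted p = 2.1e-25). Its promoter is shown because it holds a site of the kind that C/EBP factors bind. Of these factors, Cebpe, that of late granulocytes, fell, from 1094, 1339 and 1278 at 48 h to 181, 195 and 162 at 11 days (-2.78 ± 0.09). Cebpa rose (0.57) and Cebpb was not called (0.08). Whether any of these factors has to do with the fall of Ltf was not tested. The sequence is RefSeq's for GRCm38.p6, chr9:111019042-111019341 on the plus strand, from 250 bases before the gene's start to 50 after it. Capitals mark a match to TTGCNNAA, searched on both strands.
Ltf: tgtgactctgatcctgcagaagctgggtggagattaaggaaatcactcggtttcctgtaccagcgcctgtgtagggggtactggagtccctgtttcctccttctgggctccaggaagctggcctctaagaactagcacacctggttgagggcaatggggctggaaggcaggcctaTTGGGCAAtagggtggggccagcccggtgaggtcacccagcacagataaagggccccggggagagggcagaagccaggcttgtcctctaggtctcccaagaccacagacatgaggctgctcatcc
Such a match was found in 8 of the 19 late neutrophil genes with a promoter in the table (42.1%), in 4 of 13 primary granule genes (30.8%) and in 10.8% of all 27025 promoters. The 4 primary granule genes were Ms4a3, Clec11a, Gfi1 and Mgst1, of which Clec11a and Mgst1 were not called. A match describes the letters only, and the motifs here and below were paired with their lists with the shares in view. In several lists, members with a match included some that were not called or moved against their list.

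Genes for the primary granules of promyelocytes fell for 10 of 14 members and rose for 1, with a median of -2.22. Myeloperoxidase (Mpo) gave 81.7, 96.2 and 107 at 11 days, against 2888, 2853 and 2956 at 48 h. The serine protease cathepsin G (Ctsg) gave 61.5, 61.2 and 57.7 at 11 days, against 1817, 1883 and 2055 at 48 h. Neither gene's groups overlapped, and the falls were 30.7-fold for Mpo (-4.94 ± 0.08) and 31.9-fold for Ctsg (-4.99 ± 0.09). The neutrophil elastase gene Elane and the proteinase Prtn3 fell 25.6-fold and 11.4-fold. The member that rose was Igfbp4, which encodes a binding protein of insulin-like growth factors, at 1.19 ± 0.10.

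Of 14 red cell genes 11 fell and 1 rose (median -1.46). Alas2, the first enzyme of haem synthesis in red cell precursors, gave 108, 92.3 and 102 at 11 days, against 3517, 3341 and 3730 at 48 h (-5.13 ± 0.06, limma adjusted p = 4.7e-26). The anion exchanger of the red cell membrane, Slc4a1, fell 23.8-fold, and carbonic anhydrase 2 (Car2) 13.5-fold. Klf1, the transcription factor of this lineage, did not pass the test, at 105, 91.4 and 81.9 at 11 days and 117, 89.1 and 104 at 48 h, so its groups overlapped. The transferrin receptor Tfrc, which dividing cells of many kinds use to take up iron, rose (0.52 ± 0.06). The blood group peptidase Kel gave 45.6, 43.1 and 40.8 at 11 days, against 486, 479 and 552 at 48 h, with no overlap (-3.55 ± 0.10). Its promoter (GRCm38.p6, chr6:41704276-41704575, minus strand, RefSeq) is shown because both forms of the site searched for GATA factors lie in it, here in capitals.
Kel: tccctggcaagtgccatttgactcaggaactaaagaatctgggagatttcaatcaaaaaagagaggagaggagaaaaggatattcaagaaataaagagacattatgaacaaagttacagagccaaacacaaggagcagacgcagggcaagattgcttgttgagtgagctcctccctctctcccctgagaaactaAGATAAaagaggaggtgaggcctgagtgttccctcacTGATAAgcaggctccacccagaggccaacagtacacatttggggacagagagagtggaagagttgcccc
The letters AGATAA were found on either strand in 4 of 10 erythroid promoters (40.0%) against 11.4% of all promoters, and TGATAA in 6 of 10 (60.0%) against 9.26%. Gata1, the GATA factor of red cells, megakaryocytes, mast cells and eosinophils, gave 67.2, 65.0 and 62.8 at 11 days and 200.3, 229 and 242 at 48 h, a fall of 3.43-fold without overlap.

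Most listed genes of mast cells, basophils, eosinophils, megakaryocytes and platelets were lower as well. Whether this has to do with Gata1 was not tested. Of 17 genes of mast cells, basophils and eosinophils, 13 were lower and 1 was higher (median -2.45). The eosinophil granule genes Ear6, a ribonuclease, and Prg2, the major basic protein, fell 24.0-fold and 13.1-fold. Cpa3, the carboxypeptidase of mast cells and basophils, gave 105, 67.0 and 101 at 11 days, against 905, 1010 and 858 at 48 h, so the groups lay well apart (-3.37 ± 0.12). Hdc, which makes histamine, fell 10.2-fold, while the eotaxin receptor Ccr3 rose (0.46 ± 0.13). In this list AGATAA stood in 6 of 14 promoters (42.9%) and TGATAA in 2 of 14 (14.3%), against the 11.4% and 9.26% of all promoters. Among 10 megakaryocyte and platelet genes 8 were lower and none was higher (median -1.78). The platelet chemokine precursor Ppbp gave 356, 263 and 308 at 11 days, against 5991, 6347 and 6062 at 48 h (-4.32 ± 0.14). Nfe2, a transcription factor of platelet formation, fell 8.67-fold and the platelet membrane protein Gp9 6.87-fold. Pf4, the other main platelet chemokine, did not pass the test and overlapped, at 2980, 3476 and 2941 on the 11-day arrays and 3290, 3662 and 3586 on the 48-hour arrays.

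B lineage genes fell in 15 of 19 cases and rose in 2 (median -2.20). Ebf1, a factor that commits cells to the lineage, gave 70.7, 74.1 and 93.2 at 11 days, against 1138, 941 and 1078 at 48 h. Pax5, which keeps B cells committed, gave 123, 134 and 156 at 11 days, against 995, 820 and 858 at 48 h. Both fell without overlap, 13.3-fold for Ebf1 and 6.48-fold for Pax5, beside the surrogate light chain relative Vpreb3 (-3.57 ± 0.12), the coactivator Pou2af1 (-2.86 ± 0.13) and the recombinase subunit Rag1 (-2.85 ± 0.14). The signalling chain Cd79a fell 6.07-fold. The 2 that rose were the adaptor Blnk (0.60 ± 0.07) and the interleukin 7 receptor chain Il7r, at 4685, 4838 and 4777 at 11 days against 3132, 2822 and 2820 at 48 h. T and NK cell genes showed no common direction, with 5 higher, 5 lower and 10 not called of 20, beside 43.0% called over all genes. Cd2, an adhesion receptor of T cells, fell most (-1.99). The NK receptor Ncr1 was called higher from signals of 43.2, 40.5 and 92.1 at 11 days against 28.7, 28.2 and 31.7 at 48 h, with the third 11-day array far above the rest. The T cell receptor chain Cd3e did not pass (-0.12). Of 17 stromal and endothelial genes 2 were higher and 5 lower, a share near the 43.0% called over all genes, with the platelet and endothelial receptor Pecam1 lowest (-2.11).

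**Figure D1:**
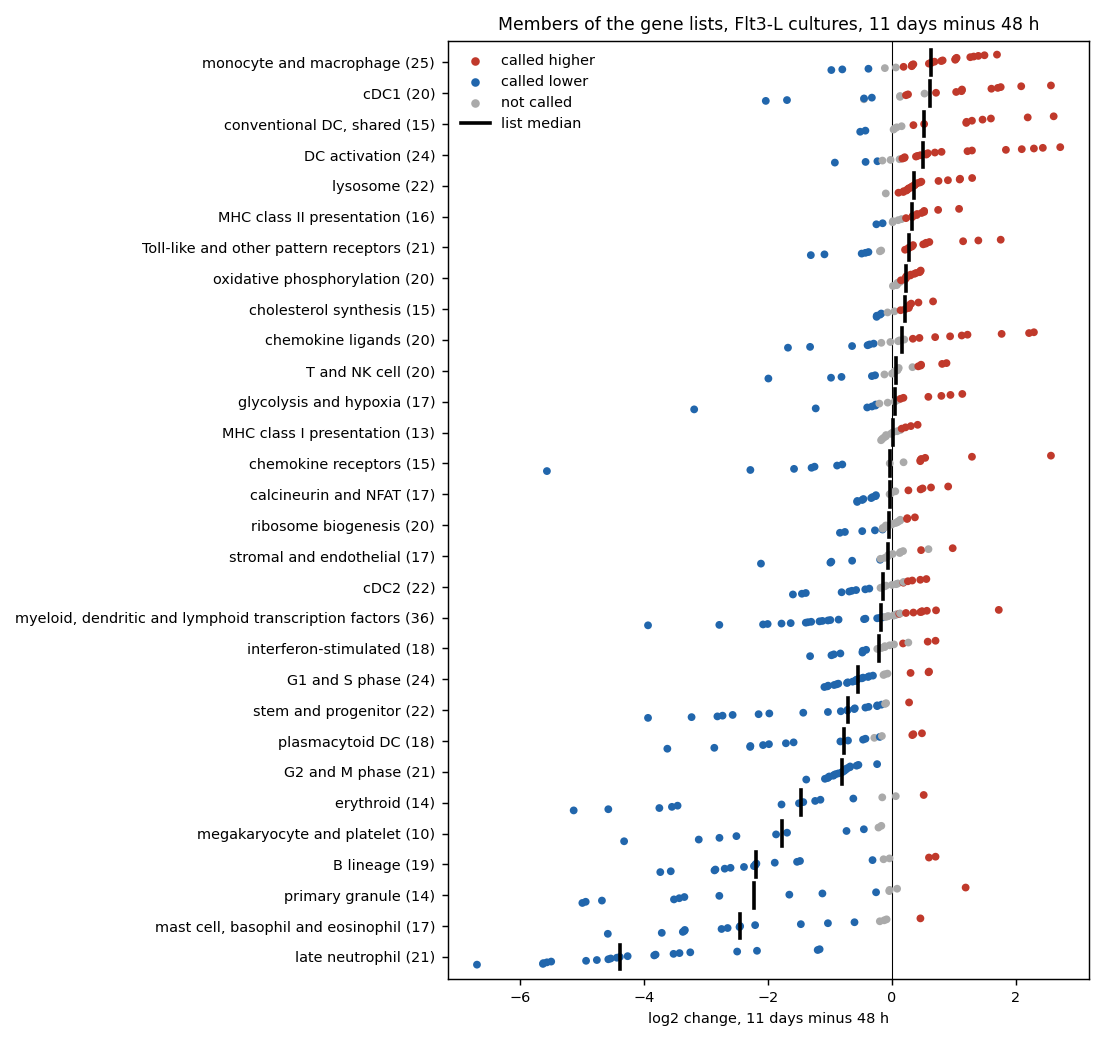
Each point is 1 gene, placed by its log2 change at 11 days minus 48 h (x axis) in the list named on the y axis, with the number of genes measured in parentheses; red points were called higher, blue points lower and grey points not called, and the bar is the list's median. The late neutrophil list lies lowest, with a median of -4.39, and the monocyte and macrophage list highest, at 0.64.

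Progenitor genes fell in 19 of 22 cases and rose in 1 (median -0.71). Myb, a transcription factor that immature blood cells need, gave 107, 99.6 and 112 at 11 days, against 1627, 1603 and 1634 at 48 h. The surface sialomucin Cd34 gave 157, 180 and 150 at 11 days, against 1072, 1174 and 1174 at 48 h. The groups did not overlap for either gene, and Myb fell 15.3-fold (-3.93 ± 0.05, limma adjusted p = 1.2e-25) and Cd34 7.03-fold (-2.81 ± 0.09). The mucin Muc13 (-3.23 ± 0.11) and the adhesion receptor Adgrl4 (-2.73 ± 0.10) fell too. The stem cell factor receptor Kit fell less, to 324, 333 and 334 at 11 days against 513, 523 and 472 at 48 h (-0.60 ± 0.12), and the LIM protein Lmo2 was the one that rose (0.28 ± 0.05). Flt3, the receptor of the ligand in the medium, fell to 697, 712 and 674 at 11 days, against 923, 942 and 930 at 48 h (-0.42 ± 0.09).

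Most genes of cell division were lower. All 21 measured G2 and M phase genes fell and none rose (median -0.80), while 18 of 24 G1 and S phase genes fell and 3 rose (median -0.55). The proliferation marker Mki67 gave 1273, 1358 and 1410 at 11 days, against 2672, 2833 and 2697 at 48 h, with no overlap (-1.02 ± 0.05). The replication helicase factor Cdc45 (-1.09), the DNA methylation cofactor Uhrf1 (-1.04) and the nucleotide reductase subunit Rrm2 (-1.03) fell alike. The 3 that rose were the polymerase clamp Pcna, at 5137, 4802 and 5097 at 11 days against 3216, 3224 and 3470 at 48 h, the transcription factor E2f1 (0.59 ± 0.13) and the helicase subunit Gins2 (0.30 ± 0.06). Topoisomerase 2 alpha (Top2a) gave 717, 743 and 809 at 11 days, against 1525, 1696 and 1565 at 48 h. The spindle motor Kif11 gave 499, 522 and 545 at 11 days, against 1332, 1402 and 1341 at 48 h. Both separated the times on every array (Top2a -1.08 ± 0.06, Kif11 -1.38 ± 0.06). Their promoters (GRCm38.p6, RefSeq) are shown for 2 elements known from G2 and M phase genes, the cell cycle homology region TTTGAA and the CCAAT box, in capitals on either strand. That of Top2a is chr11:99024140-99024439 on the minus strand, with 2 matches to TTTGAA and 6 to CCAAT, and that of Kif11 is chr19:37376132-37376431 on the plus strand, with 1 of each.
Top2a: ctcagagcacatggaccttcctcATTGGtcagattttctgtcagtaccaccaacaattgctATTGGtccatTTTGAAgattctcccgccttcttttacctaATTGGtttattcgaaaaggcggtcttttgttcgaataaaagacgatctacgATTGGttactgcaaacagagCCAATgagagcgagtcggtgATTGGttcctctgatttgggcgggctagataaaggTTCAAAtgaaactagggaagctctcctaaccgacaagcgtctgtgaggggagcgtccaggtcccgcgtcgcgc
Kif11: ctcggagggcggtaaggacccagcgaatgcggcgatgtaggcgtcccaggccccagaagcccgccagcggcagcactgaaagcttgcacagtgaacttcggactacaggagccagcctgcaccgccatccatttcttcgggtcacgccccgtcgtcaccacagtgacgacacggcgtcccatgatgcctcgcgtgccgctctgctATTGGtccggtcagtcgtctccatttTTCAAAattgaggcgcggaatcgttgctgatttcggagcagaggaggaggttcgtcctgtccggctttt
TTTGAA was found in 12 of 16 promoters of the G2 and M list (75.0%) against 18.1% of all promoters, and CCAAT in 14 of 16 (87.5%) against 37.9%.

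**Figure D2:**
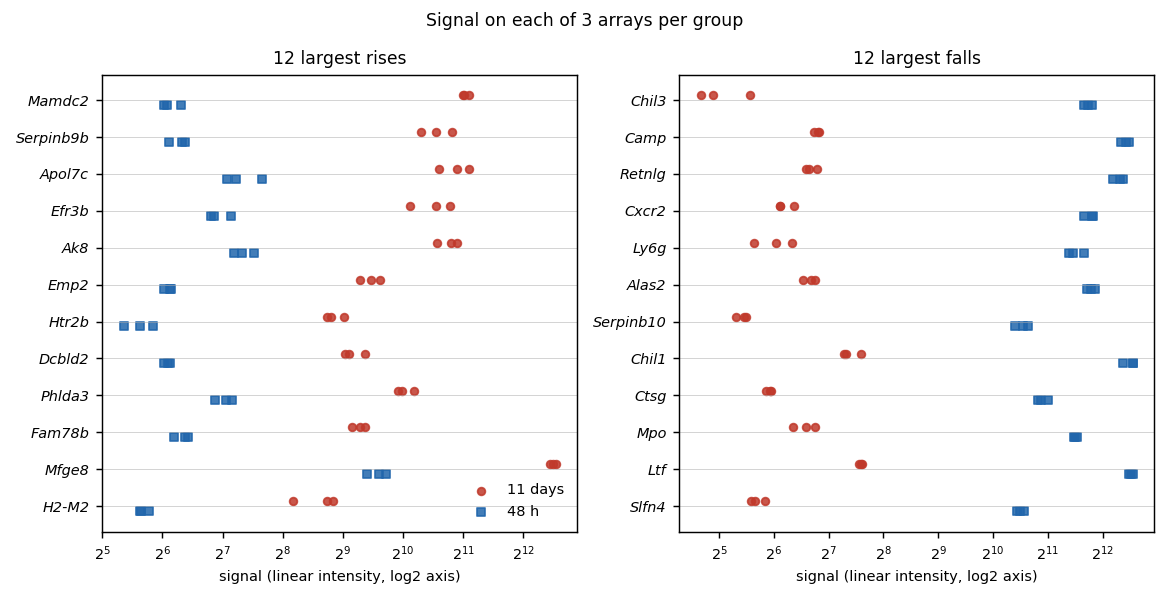
Signal of each array on a log2 axis (x) for the 12 genes that rose most (left) and the 12 that fell most (right); red circles are the 3 arrays of 11-day cultures and blue squares the 3 of 48-hour cultures. The 2 groups do not overlap for any of these genes, which the rule that chose them required.

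The genes that rose most were a mixed set. Mamdc2 gave 2181, 2037 and 2072 at 11 days, against 67.2, 79.4 and 65.5 at 48 h (29.8-fold, 4.89 ± 0.08, limma adjusted p = 4.6e-24). Serpinb9b, of the serpin family that blocks granzymes, gave 1497, 1256 and 1801 at 11 days, against 79.9, 69.2 and 83.4 at 48 h (19.4-fold). For both, the dimmest 11-day array was far brighter than the brightest 48-hour array. Next came the apolipoprotein L member Apol7c (3.55 ± 0.23), Efr3b (3.54 ± 0.13), the adenylate kinase Ak8 (3.41 ± 0.09), the membrane protein Emp2 (3.36 ± 0.16) and the serotonin receptor Htr2b (3.25 ± 0.11). Dcbld2, Phlda3, which restrains Akt signalling, and Fam78b followed at 3.09, 3.00 and 2.94. Mfge8, which bridges dying cells to phagocytes, gave 5771, 5582 and 5936 at 11 days, against 678, 780 and 842 at 48 h (7.54-fold). The non-classical MHC gene H2-M2 closed the 12 at 2.90, with Rhoj just outside at 2.88. On the other side the 12 largest falls held Chil3, Camp, Retnlg, Cxcr2, Ly6g, Alas2, Serpinb10 (-5.11 ± 0.08), Chil1 (-5.10 ± 0.08), Ctsg, Mpo, Ltf and Slfn4 (-4.80 ± 0.14).

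Genes of the cDC1 list rose in 12 of 20 cases and fell in 4 (median 0.62). Xcr1, the receptor for the chemokine XCL1, gave 1177, 952 and 1167 at 11 days, against 182, 192 and 178 at 48 h. Clec9a, which detects actin of dead cells, gave 976, 922 and 830 at 11 days, against 265, 270 and 296 at 48 h. The 11-day arrays lay above all 48-hour arrays for both, and Xcr1 rose 5.94-fold (2.57 ± 0.17, limma adjusted p = 2.6e-12) and Clec9a 3.28-fold (1.71 ± 0.13). The integrin chain Itgae (CD103), the RNA sensor Tlr3 and the adhesion protein Cadm1 rose 4.26-fold, 3.38-fold and 3.05-fold. The factors of this lineage moved less. Batf3 rose to 175, 225 and 190 at 11 days, against 124, 120 and 113 at 48 h (0.71 ± 0.09). Id2 rose by 0.23 ± 0.05, a call that ended after quantile normalization again (0.09), and Irf8 did not pass the test, at 3343, 2511 and 3104 on the 11-day arrays and 2577, 2432 and 3144 on the 48-hour arrays. Members that fell were Cd24a (-2.03 ± 0.10), a surface protein also found on red cell, granulocyte and B cell precursors, the uptake receptor Ly75 (-1.69 ± 0.13), Cd8a (-0.45 ± 0.09) and the integrin chain Itgb7.

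Of 15 genes shared by conventional dendritic cells, 9 rose and 2 fell (median 0.52). The integrin Itgax (CD11c) gave 2802, 2663 and 3010 at 11 days, against 628, 595 and 626 at 48 h, well apart (4.58-fold, 2.19 ± 0.05). Zbtb46, the factor that marks the conventional dendritic lineage, rose only slightly, to 199, 162 and 180 at 11 days against 142, 142 and 139 at 48 h (0.35 ± 0.07), while Flt3 and the kynurenine enzyme Kmo (-0.51 ± 0.11) fell. The defining markers of the shared list thus split, with Itgax and Zbtb46 higher and Flt3 lower. Hepacam2 rose 6.12-fold, Snx22 2.76-fold and the inhibitory receptor Havcr2 2.31-fold.

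Genes that dendritic cells switch on when they mature were higher in 18 of 24 cases and lower in 3 (median 0.51). Il12b, the p40 chain of interleukin 12, gave 314, 426 and 672 at 11 days, against 73.8, 71.4 and 59.6 at 48 h. The actin bundler Fscn1, which shapes the dendrites, gave 934, 1222 and 1434 at 11 days, against 209.5, 217 and 226 at 48 h. Both rose without overlap, 6.59-fold for Il12b (2.72 ± 0.19) and 5.42-fold for Fscn1 (2.44 ± 0.14), with a wide spread among the 11-day arrays. Ccr7, which guides dendritic cells to lymph nodes, gave 1321, 1868 and 2258 at 11 days against 734, 672 and 765 at 48 h (1.29 ± 0.13). The T cell chemokine Ccl5 rose 4.91-fold, the regulatory ligand Cd200 4.28-fold, the signalling inhibitor Socs2 3.59-fold and Cd83 3.03-fold. The costimulatory ligands moved little: Cd80 rose by 0.58 ± 0.10 and Cd86 by 0.42 ± 0.10. The costimulatory receptor Cd40 did not pass, at 296, 308 and 360 at 11 days and 379, 333 and 355 at 48 h. Stat4, which relays interleukin 12 signals, fell to 268, 428 and 451 at 11 days, against 627, 774 and 718 at 48 h (-0.92 ± 0.15), and so did Il15 and Birc3.

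Of the cDC2 list 9 of 22 genes fell and 5 rose (median -0.13, and -0.08 with array medians subtracted). Irf4, the factor on which this type relies, gave 193, 251 and 241 at 11 days, against 601, 580 and 601 at 48 h, with no overlap (2.62-fold lower, -1.39 ± 0.10). The lectin Mgl2 (-1.59 ± 0.13), the lymphotoxin chain Ltb (-1.45 ± 0.08), Notch2 (-0.57 ± 0.07) and the lectin Cd209a (-0.36 ± 0.08) fell. Sirpa, an inhibitory receptor that macrophages share, rose to 6168, 5932 and 6166 at 11 days against 4335, 4394 and 4543 at 48 h (0.46 ± 0.04), and the glucan receptor Clec7a rose by 0.56 ± 0.09. Clec10a overlapped and did not pass (-0.15 ± 0.15).

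Plasmacytoid genes fell in 13 of 18 cases and rose in 3 (median -0.77). Siglech, the surface lectin of these cells in mice, gave 315, 294 and 285 at 11 days, against 1446, 1462 and 1441 at 48 h (4.87-fold lower, -2.29 ± 0.08). The chemokine receptor Ccr9 and the factor Spib fell 4.86-fold and 4.22-fold, and Atp1b1, a sodium pump subunit, and Ly6d, a marker shared with lymphoid progenitors, 12.3-fold and 7.28-fold. The fall did not reach all members alike. Tcf4, the factor on which the lineage rests, fell only slightly (-0.19 ± 0.05), at 1075, 1009 and 1068 at 11 days against 1270, 1201 and 1134 at 48 h. Bst2, Tlr7 and Zeb2, which conventional dendritic cells or macrophages also make, rose by 0.35 ± 0.05, 0.33 ± 0.08 and 0.49 ± 0.05. Of the defining markers, Siglech and Ccr9 therefore fell and Bst2 rose.

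**Figure D3:**
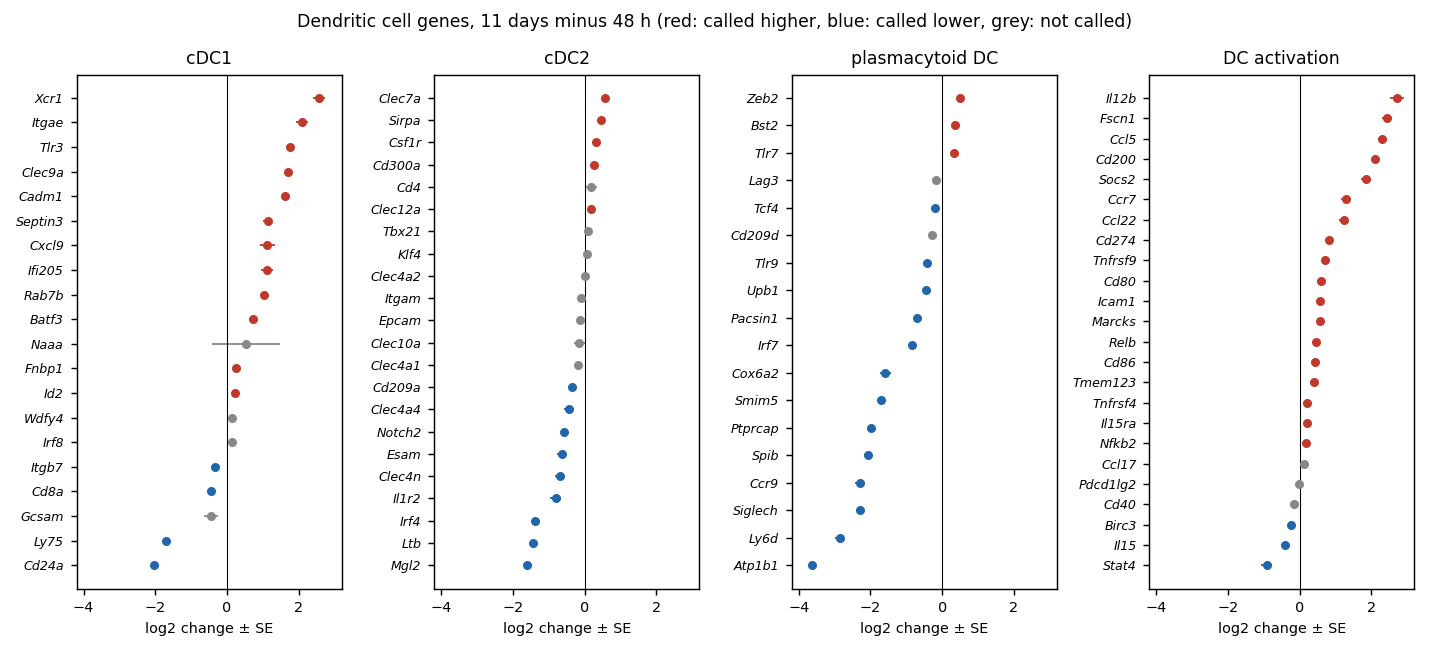
Log2 change at 11 days minus 48 h (x axis, point) with its SE (bar) for every measured gene of 4 dendritic cell lists; red was called higher, blue lower and grey not called. In the cDC1 panel Xcr1 leads at 2.57, and in the plasmacytoid panel Atp1b1 lies lowest at -3.62.

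Genes of MHC class II presentation rose in 10 of 16 cases and fell in 2 (median 0.33), by amounts smaller than those above. H2-Eb1, a beta chain, gave 5349, 5441 and 5451 at 11 days, against 3817, 3961 and 3542 at 48 h (0.52 ± 0.07). H2-Aa, an alpha chain, gave 5779, 6330 and 5956 at 11 days, against 4462, 4809 and 4394 at 48 h (0.40 ± 0.07). Ciita, the coactivator that switches the class II genes on, rose to 613, 686 and 680 at 11 days, against 451, 485 and 440 at 48 h (0.52 ± 0.07). None of these 3 overlapped between the times. H2-Eb2 (1.09 ± 0.15), the peptide exchange regulator H2-Oa (0.75 ± 0.07) and H2-Ab1 (0.33 ± 0.07) rose, the invariant chain Cd74 did not pass (0.16 ± 0.07), and Rfx5, a factor of the class II promoter, fell (-0.25 ± 0.06). Promoters of 2 chains (GRCm38.p6, RefSeq) are shown for the Y box, where NF-Y binds, searched as TGATTGG on both strands. That motif holds the CCAAT box, read from the other strand, within it. H2-Aa is chr17:34287774-34288073 on the minus strand and H2-Eb1 chr17:34305617-34305916 on the plus strand.
H2-Aa: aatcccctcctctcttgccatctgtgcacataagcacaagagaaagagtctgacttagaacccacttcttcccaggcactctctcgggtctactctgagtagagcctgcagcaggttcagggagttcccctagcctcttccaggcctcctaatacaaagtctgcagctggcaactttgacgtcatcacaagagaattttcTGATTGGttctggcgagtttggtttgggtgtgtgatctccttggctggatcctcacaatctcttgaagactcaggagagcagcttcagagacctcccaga
H2-Eb1: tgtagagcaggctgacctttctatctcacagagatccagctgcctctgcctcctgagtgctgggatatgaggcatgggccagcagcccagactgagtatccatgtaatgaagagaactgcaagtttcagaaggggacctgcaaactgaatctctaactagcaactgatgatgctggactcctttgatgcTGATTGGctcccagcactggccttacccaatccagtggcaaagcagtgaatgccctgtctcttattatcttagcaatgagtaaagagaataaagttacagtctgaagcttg
A Y box was found in 6 of 12 promoters of the list (50%) against 8.20% of all promoters. Among the 6 were those of H2-Ob, which was not called, and Rfx5, which fell. For MHC class I presentation 4 of 13 genes rose and none fell, beside 24.2% higher and 18.8% lower over all genes. After quantile normalization again 2 rose and 2 fell, and 1 rose with only the groups compared. The peptide-loading protein Tapbp (0.22) and the immunoproteasome subunit Psmb10 (0.42) were among those that rose. Both of these calls ended with only the groups compared, without 11-day array 1 or 3 (Tapbp 0.196 and 0.157, Psmb10 0.315 and 0.327) and without 48-hour array 2 (0.18 and 0.334), that of Psmb10 also without 48-hour array 1 (0.34), and that of Tapbp also after quantile normalization again (0.124).

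Receptors for microbial patterns rose in 14 of 21 cases and fell in 5 (median 0.28). After Tlr3, the endotoxin receptor chain Cd14 rose most (1.40 ± 0.11) and then the RNA sensor Tlr8 (1.15). The inflammasome sensor Nlrp3 (-1.31), the lipopeptide receptor Tlr2 (-1.09) and Tlr9, the DNA sensor of plasmacytoid cells (-0.42 ± 0.06), fell. Chemokine receptors moved both ways, 6 higher and 7 lower of 15. Xcr1 and Ccr7 rose, while Cxcr2, Ccr9, the fractalkine receptor Cx3cr1 (-1.58) and the retention receptor Cxcr4 (-1.29) fell. Of 20 chemokine ligands 9 rose and 6 fell (median 0.17, 0.39 without the dimmest genes and 0.10 without 11-day array 3), and 3 fell without 48-hour array 1. After Ccl5 the largest rises were Cxcl14, at 504, 496 and 488 at 11 days against 115, 100.5 and 105 at 48 h, and the membrane-bound Cxcl16 (1.77). The neutrophil attractant Cxcl2 (-1.68 ± 0.22) and the interferon-induced Cxcl10 (-1.32 ± 0.18) fell.

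Macrophage genes rose beside those of dendritic cells, 20 of 25 higher and 3 lower (median 0.64). Ms4a7, a membrane protein of mature macrophages, gave 2582, 2800 and 2941 at 11 days, against 812, 933 and 820 at 48 h. C1qa, a chain of the first complement component, gave 1738, 1870 and 2050 at 11 days, against 834, 881 and 649 at 48 h. The groups lay apart for both genes (Ms4a7 1.70 ± 0.10, C1qa 1.27 ± 0.15). The defining markers all rose: C1qb (0.64 ± 0.12), Adgre1, the F4/80 antigen (0.64 ± 0.06), and Mertk, a receptor for dying cells (1.02 ± 0.15). The elastase Mmp12 rose 2.82-fold and the mannose receptor Mrc1 2.50-fold. The adhesion protein Vcam1 (-0.97 ± 0.13), the monocyte receptor Ccr2 (-0.80 ± 0.09) and the haemoglobin receptor Cd163 (-0.38 ± 0.12) fell. Over the 25 genes the mean log2 signal was 11.31, 11.29 and 11.36 on the 11-day arrays and 10.76, 10.73 and 10.69 on the 48-hour arrays. No sort is given in the labels, so the part that macrophages have in the genes they share with dendritic cells was not tested.

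Of 22 lysosome genes 21 rose and none fell (median 0.35). After quantile normalization again 19 rose and 1 fell (median 0.23). The acid phosphatase Acp5 gave 1798, 2062 and 1807 at 11 days, against 804, 745 and 753 at 48 h, with no overlap (2.46-fold, 1.30 ± 0.07). The proton pump subunit Atp6v0d2 and the protease Ctsl rose by 1.10 each and the galactosidase Glb1 by 0.91. The one that did not pass was Tfeb (-0.10), a factor that switches lysosome genes on. Its binding core, TCACGTG, stood in 5 of 16 promoters of the list (31.2%) against 3.84% of all promoters.

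Other programmes of metabolism moved less. Oxidative phosphorylation genes rose in 13 of 20 cases with none lower (median 0.23), among them the succinate dehydrogenase subunit Sdhb (0.47). After quantile normalization again 12 of them rose and 1 fell. Cholesterol synthesis genes rose in 9 of 15 cases and fell in 4 (median 0.22), led by Dhcr7 (0.67). Among 17 genes of glycolysis and hypoxia 6 rose and 6 fell. Egln3, an oxygen-sensing hydroxylase, gave 73.8, 61.9 and 75.7 at 11 days, against 654, 628 and 639 at 48 h, well apart (9.12-fold lower), and the lactate transporter Slc16a3 fell 2.34-fold. The collagen hydroxylase subunit P4ha1 (1.14 ± 0.08) and the glucose transporter Slc2a1 (0.80) rose. Of 20 ribosome biogenesis genes 3 were higher and 5 lower, a share near the 43.0% called over all genes, and 8 were lower after quantile normalization again.

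Interferon-stimulated genes fell in 8 of 18 cases and rose in 3 (median -0.20, but -0.02 without 11-day array 1 and -0.33 without 11-day array 3). Irf7, a factor of the interferon response, gave 226, 278 and 306 at 11 days, against 458, 470 and 502 at 48 h, all lower (-0.83 ± 0.11), whereas the antiviral GTPase Mx1 (0.71) rose. The mean over the list was 7.88, 8.05 and 8.24 on the 11-day arrays and 8.32, 8.30 and 8.34 on the 48-hour arrays on the log2 scale, so the 11-day arrays differed among themselves. The core of the interferon-stimulated response element stood in 7 of 13 promoters of the list (53.8%) against 3.49% of all promoters. Among the 7 were those of Stat2, which rose, and of Ifit3 and Oas1a, which were not called.

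Of 17 components of calcineurin and NFAT signalling 5 rose and 8 fell. Nfatc1 and Nfatc3, transcription factors of the pathway, both fell (-0.56 each), and Nfatc2 rose by 0.50. Rcan1, an inhibitor of calcineurin whose transcription NFAT is known to raise, gave 567, 705 and 621 at 11 days, against 349, 345 and 309 at 48 h, higher on every array (0.91 ± 0.09). Among 36 transcription factors of myeloid, dendritic and lymphoid cells 19 fell and 9 rose (median -0.17). Egr2, a zinc finger factor, rose most, to 1899, 2038 and 1831 at 11 days against 583, 572 and 584 at 48 h (3.31-fold). Cebpa rose by 0.57 ± 0.08 and Mycl, a Myc relative of dendritic cells, by 0.49 ± 0.09. Spi1, the PU.1 factor that all myeloid cells need, was barely higher, at 3789, 3722 and 4099 at 11 days and 3572, 3650 and 3437 at 48 h (0.12 ± 0.05, limma adjusted p = 0.042). That call ended after quantile normalization again (0.006), with only the groups compared, and without 11-day array 3 (0.08), 48-hour array 1 (0.126) or 48-hour array 3 (0.099). The inhibitor of E proteins Id3 (4.01-fold lower) and the zinc finger factor Bcl11a, which plasmacytoid and B cells need (-1.63 ± 0.08), fell.

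The arrays also read 300 microRNA genes, of which 16 were higher and 39 lower, 18.3% called against 43.0% over all genes. The probe sets are named for the gene and do not tell a mature arm from its precursor. The genes shown were chosen after their values were seen, among those that changed most. Mir221 gave 208.8, 155.1 and 160.0 at 11 days, against 67.4, 57.0 and 57.9 at 48 h. Its neighbour Mir222 gave 204.6, 154.4 and 183.1 at 11 days, against 77.5, 66.8 and 66.4 at 48 h. Both rose without overlap (1.51 ± 0.13 and 1.36 ± 0.10), and their 3p arms share a seed. Mir142, a microRNA gene of blood cells, gave 351.7, 434.5 and 459.5 at 11 days, against 914.6, 1004.2 and 959.5 at 48 h, lower on every array (-1.22 ± 0.10). Mir15a and Mir15b, whose 5p arms share another seed though the genes lie on different chromosomes, fell (-0.87 ± 0.09 and -0.90 ± 0.22), Mir15b at 17.7, 24.2 and 22.7 at 11 days against 29.7, 47.4 and 44.6 at 48 h, near the bottom of the scale. Mir342 rose (0.96 ± 0.10). The mature sequences are RefSeq's (GRCm38.p6) with the seed, bases 2 to 8, in capitals. They lie at chrX:19146307-19146329 and chrX:19146901-19146923 (minus strand) for the first pair, chr14:61632075-61632096 (minus) and chr3:69009775-69009796 (plus) for the second, chr11:87756903-87756925 (plus) for miR-142a-3p and chr12:108658680-108658702 (plus) for miR-342-3p.
mmu-miR-221-3p: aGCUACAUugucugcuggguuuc
mmu-miR-222-3p: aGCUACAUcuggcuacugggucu
mmu-miR-15a-5p: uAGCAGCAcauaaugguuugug
mmu-miR-15b-5p: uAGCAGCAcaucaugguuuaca
mmu-miR-142a-3p: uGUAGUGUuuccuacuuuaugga
mmu-miR-342-3p: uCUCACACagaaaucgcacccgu

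The early part of the culture was compared through 24 h of Flt3-L against unstimulated marrow, on arrays that the later step does not use. There 3565 genes were higher (17.9%) and 3538 lower (17.7%). Of the genes higher early, 1574 were also higher late (44.2% of the early and 32.6% of the late calls) and 1007 were lower late (28.2% and 26.8%). Of those lower early, 1274 were again lower late (36.0% and 33.9%) and 991 were higher late (28.0% and 20.6%). Macrophage and lysosome genes lay with the first kind: 17 of 25 and 21 of 22 were higher at 24 h, and 20 and 21 were higher in the later step. All 21 G2 and M phase genes were lower in both steps. Of 24 G1 and S phase genes all were lower at 24 h and 18 again later, while Pcna (-0.69 early), E2f1 (-0.63) and Gins2 (-0.66) rose later. Late neutrophil genes took no common direction early, 3 higher and 5 lower of 21, while all 21 fell later.

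Some genes turned round between the early and the late step. Kcnma1, a potassium channel gene, stood at 62.3, 50.5 and 61.2 in unstimulated marrow, 5538, 5268 and 5402 at 24 h, 4660, 4902 and 4494 at 48 h and 159.6, 184 and 213 at 11 days. It was thus 93.5-fold higher at 24 h than in unstimulated marrow and 25.4-fold lower at 11 days than at 48 h, though another of its probe sets had the opposite sign in the later step. With predicted and similar genes left out, the 5 largest falls among the 1007 genes of this kind were, beside Kcnma1, those of Chil1, a chitinase-like protein of neutrophils, and of Cxcr2, Mirt2 and Mcemp1, called higher at 24 h by 0.73, 0.33, 0.69 and 0.62. For Cxcr2 that early call ended without unstimulated array 1 (0.306) or 3 (0.315). The reverse was seen for Cd59a, which shields cells from complement, at 780, 774 and 808 in unstimulated marrow, 187, 174 and 166 at 24 h, 74.1, 90.9 and 82.5 at 48 h and 520, 538 and 497 at 11 days. Serpinb6b, Rhoj, Ak8 and Dcbld2, which with Cd59a had the largest later rises among the 991 genes of this kind by the same rule, were likewise lower at 24 h, by -0.95, -0.78, -0.80 and -0.21, and higher in the later step. The early call of Dcbld2 ended without any of 4 arrays, arrays 1 and 2 at 24 h and arrays 1 and 3 of unstimulated marrow (-0.194 to -0.212). The timing of other genes was not alike. Xcr1 and Il12b stayed near their unstimulated level through 24 h, whereas Itgax was already higher by then, 0.93 ± 0.05 above unstimulated marrow.

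**Figure D4:**
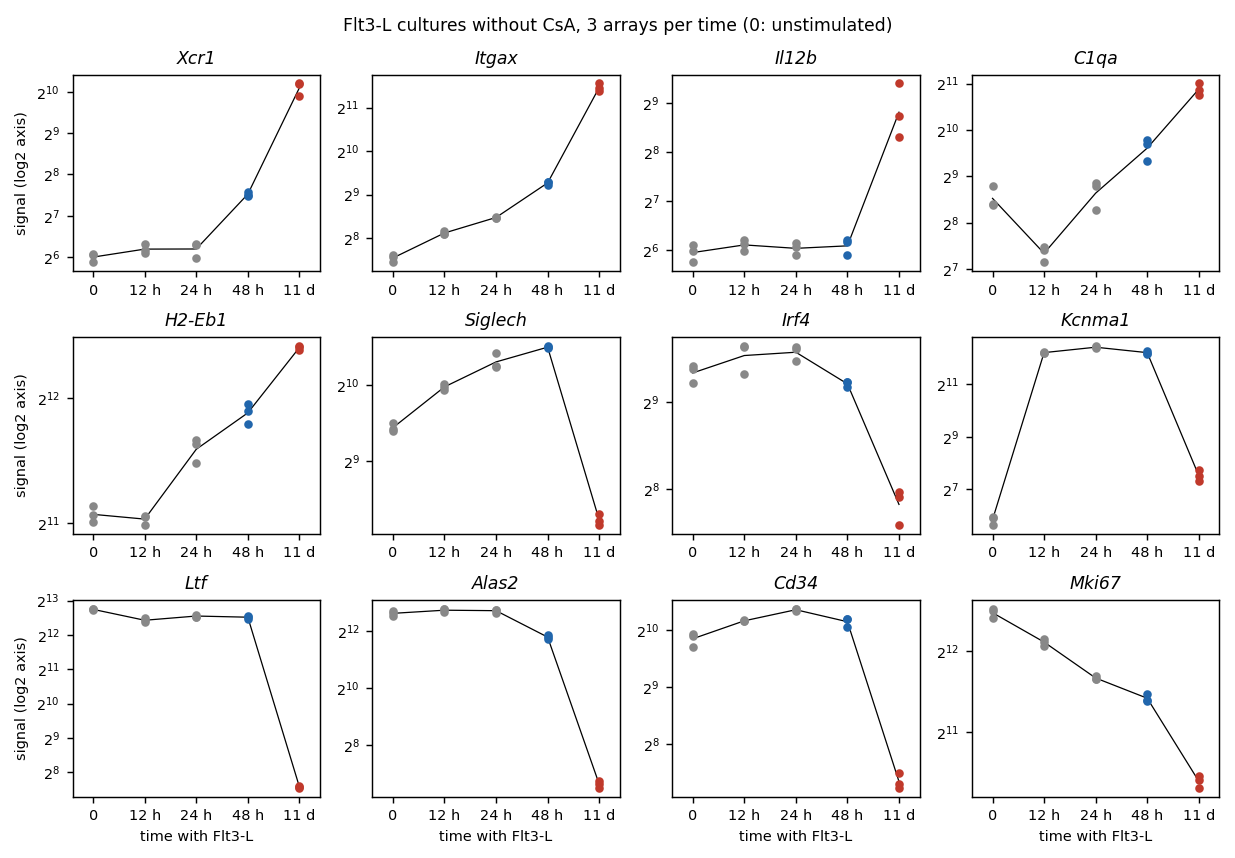
Signal on a log2 axis (y) of 12 genes at 5 times with Flt3-L and without CsA (x, 0 for unstimulated marrow); points are single arrays, 3 per time, coloured red at 11 days and blue at 48 h, and lines join the group means. Siglech climbs to 48 h and is low at 11 days, and Ltf, Alas2 and Cd34 are lowest at 11 days.

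The same step was measured with CsA in the medium, on 6 other arrays, where 4747 genes were higher at 11 days (23.8%) and 3846 lower (19.3%). The rises shared by both kinds of culture numbered 3745 (77.7% of those with Flt3-L alone and 78.9% of those with CsA), and the shared falls 3113 (82.9% and 80.9%). The 2 sets of changes had a correlation of 0.924 across genes, which are not independent replicates. The difference between the steps, Flt3-L alone minus CsA, was tested in the same limma model and was called above 0 for 926 genes (4.65%) and below 0 for 461 (2.31%), 6.96% in all. The difference was at least 2-fold for 108 (0.542%) and 28 (0.140%) of them. Of the 926, 267 rose in both steps, 266 fell in both and 57 moved in opposite directions. A further 191 rose with Flt3-L alone and were not called with CsA. Another 144 fell with CsA and were not called with Flt3-L alone, and 1 was called in neither step. Of the 461, 161 rose in both steps, 126 fell in both and 18 moved in opposite directions. The others were 83 that fell only with Flt3-L alone and 73 that rose only with CsA.

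The difference was above 0 for 12 of 20 cDC1 genes and 10 of 15 genes shared by conventional dendritic cells, and below 0 for none of these. Of the 12, 9 had risen with Flt3-L alone and 2, Cd24a and Itgb7, had fallen less than with CsA. Of the 10, 6 had risen and 2, Flt3 and Kmo, had fallen less. The 11-day arrays with CsA differed among themselves, with array 1 highest. Over the shared list their mean log2 signals were 8.804, 8.467 and 8.459, against 8.457, 8.434 and 8.466 with CsA at 48 h. Over the cDC1 list they were 8.938, 8.662 and 8.782, against 8.785, 8.953 and 8.989 with CsA at 48 h. In the other dendritic cell lists 1 gene lay above and 3 below 0 of 22 cDC2 genes, 3 above and 3 below of 18 plasmacytoid genes, and 9 above and 2 below of 24 activation genes. Xcr1 stood at 619, 273 and 349 with CsA at 11 days against 195, 178 and 219.8 with CsA at 48 h, where its rise without CsA was larger by 1.59 ± 0.24 (limma adjusted p = 7.5e-05). Serpinb9b differed most: it gave 181, 185 and 179 with CsA at 11 days against 96.0, 88.4 and 86.4 with CsA at 48 h, beside the 19.4-fold rise without it (difference 3.27 ± 0.14). Ms4a1, the B cell surface protein CD20, gave 356, 271 and 439 without CsA at 11 days against 1662, 1424 and 1743 without CsA at 48 h. With CsA it gave 36.1, 31.5 and 38.1 at 11 days against 1419, 1164 and 1380 at 48 h, a deeper fall. The collagenase Mmp13 rose with Flt3-L alone, to 766, 631 and 1006 at 11 days against 198, 193 and 172 at 48 h, and did not pass with CsA (0.01). Falls that were deeper with CsA than without included Ngp (difference 2.15 ± 0.18) and Ly6a2 (2.07 ± 0.16), and 11 of 21 late neutrophil genes had a difference above 0 with 1 below.

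In the other direction, the lipoxygenase Alox15 fell to 66.3, 79.7 and 64.8 without CsA at 11 days, against 604, 721 and 816 without CsA at 48 h. With CsA it gave 69.9, 77.5 and 72.8 at 11 days against 141, 191 and 206 at 48 h, so the times were closer to each other (difference -2.07 ± 0.17). Serpinb2, the matrix proteoglycan Vcan and the glycerol channel Aqp9 shared that pattern (-1.89 ± 0.31, -1.62 ± 0.25 and -1.62 ± 0.24). Lox, which crosslinks collagen, rose only with CsA, where it gave 194, 235 and 248 at 11 days against 52.1, 71.0 and 74.2 at 48 h. Without CsA it did not pass, at 48.3, 62.9 and 50.5 at 11 days and 55.9, 57.1 and 51.4 at 48 h (difference -1.82 ± 0.18). Of the lists that moved together in the step itself, the macrophage list had 1 gene above and 2 below 0 of 25, the lysosome list 1 above of 22, and the G2 and M phase list none of 21, beside 6.96% called either way over all genes.

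**Figure D5:**
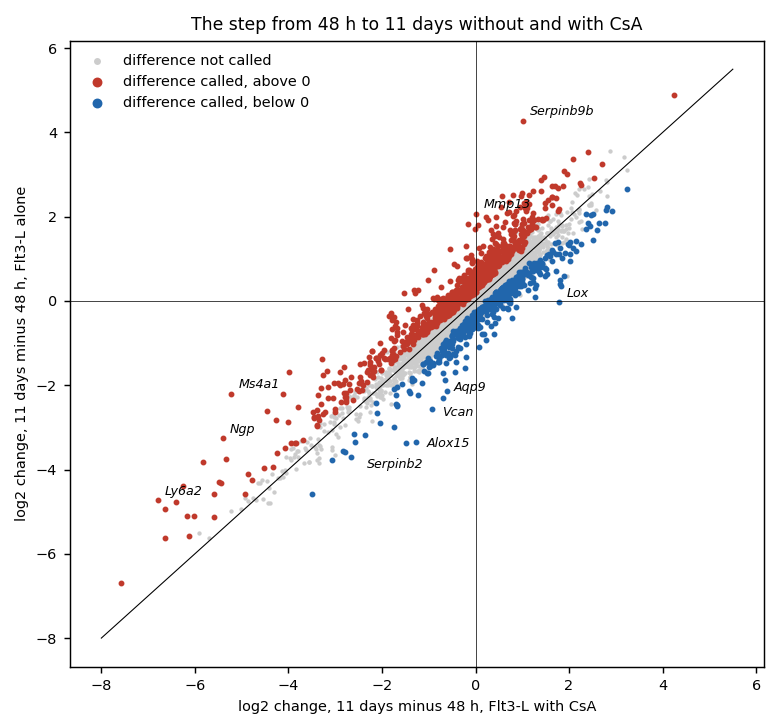
Log2 change from 48 h to 11 days for each of 19935 genes with Flt3-L alone (y axis) and with CsA (x axis); the diagonal marks equal changes, red points had a difference called above 0 and blue points below 0, and the 10 named genes are those with the largest differences of each sign by the rule for named genes. Serpinb9b lies far above the diagonal and Lox below it.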

How the data were processed

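Gene expression was read on one-colour Affymetrix arrays from Trizol-extracted, biotin-labelled RNA, per the labels' protocols. The authors deposited linear intensity values (5.2 to 18180.7) made with RMA, per the submitters' processing notes, with no version given, and log2 was taken here. Of 28815 probe sets, the platform annotation, which can be old, gave 21780 a single gene symbol. The 1605 with several symbols and the 5430 not named were left out. A gene with several probe sets (998 genes) was represented by the one with the highest mean, which gave 19935 genes. For 51 of 518 called genes of that kind, another probe set had the opposite sign.

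All 27 arrays entered 1 fit of group means in limma 3.58.1 (R 4.3.3, lmFit and eBayes), with Benjamini-Hochberg adjustment over all genes of a comparison and a threshold of 0.05. The fit was tested on simulated data with known answers, with independent noise for each gene, few genes changed and no shared replicate effect. It recovered 62 of 66 changes of 0.5 on the log2 scale and all those of 1 or 2, with 8 false calls. Such data cannot show how the fit fares where arrays of equal number share differences or where many genes change. SE come from that fit, and 3 arrays per group limit their precision. The arrays, 30 gene lists (573 entries tested) and the rule for named genes were chosen with earlier results of these data known. List counts and medians are descriptions, to be read beside those of all genes. Named genes were the 12 largest rises and falls among called genes without overlap of arrays, 12 fixed genes, up to 4 members per list and others given a role, the 5 highest and 5 lowest differences between the steps without and with CsA, and the 5 largest reversals of the early change in each direction. Predicted, small RNA, olfactory and immune receptor genes were left out of these, and the microRNAs were picked after their values were seen. Promoters run from 250 bases before to 50 after a gene's start (RefSeq). Deviations of equal-numbered arrays from their group means correlated at 0.22, 0.07 and 0.28 between 11 days and 48 h and at -0.09, -0.02 and 0.01 between these times with CsA, not all over 0.1, so replicate numbers were not taken to pair arrays there. Between 24 h and unstimulated marrow all 3 exceeded 0.1 (0.35, 0.13 and 0.18), as they did between 48 h without and with CsA (0.54, 0.18 and 0.19). The labels state no pairing, yet some genes were highest or lowest on the same replicate number in all 9 groups, as given below. Whether arrays of equal number share a source was not tested. A block for the arrays of the groups compared is given as an alternative. It left differences by replicate number in the other groups in the error. Python 3.11.15 with numpy 2.4.6, pandas 2.3.3 and matplotlib 3.10.9 made the tables and plots.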

Additional observations from a re-analysis of the deposited data

Results flagged for a closer look

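For the genes below, the change from 48 h to 11 days differed between cultures with Flt3-L alone and cultures with CsA by at least 1 on the log2 scale at an adjusted p under 0.05 (limma, interaction of time and CsA, Flt3-L alone minus CsA, n = 3 arrays per group). These genes are named ones, so they were already chosen in part for this difference. Genes that rose further, or rose only, without CsA included Serpinb9b (3.27), Mmp13 (2.06), Xcr1 (1.59), Acp5 (1.5), Fam78b (1.47), Itgae (1.42), Emp2 (1.29) and Dcbld2 (1.21). Further ones were Hepacam2 (1.21), Cxcl14 (1.16), Ccl5 (1.14), Efr3b (1.13), Itgax (1.09), Il12b (1.09) and Phlda3 (1.04). Genes that fell less without CsA included Ms4a1 (3.03), Ngp (2.15), Ly6a2 (2.07), Ltf (1.71), Car2 (1.59), Cd34 (1.46), Spib (1.24) and Ly6d (1.14). Kit (1.12), Cd24a (1.12), Ppbp (1.12), Chil1 (1.07) and Retnlg (1.02) were of the same kind. Below 0 were Ear6 (-1.09), Cxcl10 (-1.12), Cxcl2 (-1.24), Vcan (-1.62), Aqp9 (-1.62), Lox (-1.82), Serpinb2 (-1.89) and Alox15 (-2.07).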

How the results depend on the processing

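The counts of calls were recomputed with a variance trend and robust variances, without the dimmest genes, after quantile normalization again, with each array's median subtracted, with only the groups compared, with probe sets of a gene averaged, with array weights, with a replicate block and without each array in turn. All stayed within 1.5 times the reported counts, except that asking for at least 2-fold left 556 genes higher and 709 lower at 11 days. Leaving out 1 array gave 4445 to 4820 genes higher and 3538 to 3622 lower at 11 days. It gave 721 to 913 above and 362 to 460 below 0 for the difference between the steps without and with CsA, and 3066 to 3308 higher and 3059 to 3545 lower at 24 h. With array medians subtracted 5950 were higher and 3169 lower at 11 days. With the replicate block, which moved no count of calls by over 1.5 times, 4872 were higher and 3811 lower at 11 days, 935 and 501 lay above and below 0 for the difference, and 3587 and 3555 were higher and lower at 24 h. Of 2475 values of named genes, 2443 kept direction and call, 22 lost the call and 7 gained it. The calls of Id2, Spi1, Psmb10 and Tapbp at 11 days, and of Dcbld2 and Cxcr2 at 24 h, ended under at least 1 alternative. Lox at 11 days minus 48 h, not called at -0.03, changed sign to 0.023 with array medians subtracted, and without single 11-day arrays it ran between -0.149 and 0.042 (0.01 without array 3), and the cause was not tested. Of 1260 list counts and medians, 97 moved, counts by over 1.5 times and medians by at least the spread of the list's mean between arrays of a group. After quantile normalization again the median was 0.23 for MHC class II genes (0.33 as reported) and 0.55 for macrophage genes (0.64 as reported). Medians near 0 changed sign for the MHC class I, calcineurin and NFAT, chemokine receptor, glycolysis and ribosome biogenesis lists. Among the list counts, T and NK cell genes that rose numbered 2 without the dimmest genes (5 as reported) and 3 without 11-day array 3. With array medians subtracted 7 ribosome biogenesis genes rose (3 as reported) and 1 cholesterol synthesis gene fell (4 as reported, 2 without 11-day array 1). MHC class I genes that rose numbered 2 (4 as reported) without 11-day array 1 or 3 or 48-hour array 1 or 2.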

Other observations

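Naaa, a lipid amidase listed among cDC1 genes, followed the replicate number in all 9 groups, with the array numbered 1 lowest and the array numbered 3 highest in each. Its signals were 615, 1492 and 2691 at 11 days and 338, 1003 and 2423 at 48 h. The 11-day array was thus higher at each replicate number. The gene was not called between the times (limma adjusted p = 0.72, and 0.70 with a replicate block). That block covered only the arrays of the groups compared, so the spread by replicate number in the other groups stayed in the error. The SE moved only from 0.94 to 0.88 with it. The blocked p therefore cannot show whether Naaa changed between arrays of equal number. Genes highest on the same replicate number in all 9 groups numbered 16 for number 1, 46 for number 2 and 9 for number 3. Those lowest on the same number in all 9 groups numbered 28, 22 and 4. Some genes thus followed the replicate number across groups, those at 11 days and 48 h among them, and what arrays of equal number share was not tested.

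Among the 11-day arrays without CsA, the second was lower than the others for several genes. Nkg7, a granule protein of NK cells, cytotoxic T cells and some myeloid precursors, gave 139, 74.6 and 213 at 11 days, against 380, 430 and 420 at 48 h. Gzmb gave 73.4, 46.1 and 104 at 11 days, against 41.2, 41.1 and 38.2 at 48 h. The interferon-induced chemokine Cxcl9 gave 162, 78.9 and 246 at 11 days, against 72.8, 60.6 and 67.9 at 48 h. What set these arrays apart was not tested.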
